A study of Sus scrofa domesticus with 16 samples.

Results

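The genes described here were 8 genes of the extracellular matrix and of transforming growth factor-beta (TGF-beta) signalling: the collagen chains COL4A1, COL5A1, COL6A3 and COL24A1, the membrane-type matrix metalloproteinase MMP15, the ligand BMP7, the coreceptor TGFBR3 and the corepressor SKI. They were chosen by symbol from the authors' deposited table of differentially methylated CpG sites, so each of them had at least 1 kept site by construction, and the differences and q-values below are a description of the chosen sites with no test. The 8 genes carried 12 of the 2349 kept sites and 8 of the 898 gene symbols in the table. The kept sites were themselves at most 0.352% of the rows tested. Reduced representation bisulfite sequencing (RRBS) reads methylation at CpGs in DNA cut by the enzyme MspI at CCGG, and here it was applied to lung DNA of 16 pigs. The increased-dose group held 8 animals (4 males and 4 females) whose feed carried 3000 IU of cholecalciferol (vitamin D3) per kg in the grower phase and 2500 IU per kg in the finisher phase. The standard-dose group held 8 animals (4 males and 4 females) on 2000 IU per kg as growers and 1500 IU per kg as finishers. No group went without cholecalciferol, and the question was what long-term intake of the larger dose does to lung DNA methylation.

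Collagens form the fibrils, microfibrils and basement membranes that hold the airways and the alveolar wall, and matrix metalloproteinases cut them and other matrix proteins. TGF-beta and bone morphogenetic proteins bind paired receptors that pass the signal to SMAD proteins, which drive many matrix genes, collagens among them. In the lung this pathway is best known from development, repair and fibrosis. A methyl group on the cytosine of a CpG near a gene start often goes with low transcription, while methylation inside a gene body has no fixed relation to its transcription.

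The table gives, for every kept site, a difference of methylation in percentage points (read as increased minus standard dose, a direction that the table does not spell out, so that a positive value is a gain in the increased-dose animals) and the q-value of the authors' comparison. Values of single animals and the reads behind each site were not analysed here, so the spread between animals and the depth are unknown. No interval over animals is given for any difference, and the q-values may not cover that spread. Lung is a mixture of cell types, and a change of methylation within cells cannot be told apart from a change in the share of a cell type. The first column of the table numbers the rows up to 667810, and its steps never exceeded the number of reference CpGs between neighbouring sites (0 of 2232 pairs). These numbers were read as rows of all tested sites, and the share of kept sites is taken over rows up to the highest one. Any tested rows after the last kept site are not counted, so the true share can only be lower. The smallest difference in the table was 25 points and the largest q-value was 0.00254. Of the members, the COL24A1 site at 25.2 points and the SKI site at 25.8 points lay nearest to that lower edge of the table, and sites of these genes below it were not analysed here.

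The reference sequence around the sites is shown for the members on which the description turns, from the RefSeq copy of Sscrofa11.1, with every called CpG in capitals. The first set holds sites in sequence that the reference prints in lower case as repetitive (soft-masked), each turned to the strand that reads like the COL24A1 sequence, to let their likeness be seen.
COL24A1 (both sites), chr4:130131594-130131695, plus strand: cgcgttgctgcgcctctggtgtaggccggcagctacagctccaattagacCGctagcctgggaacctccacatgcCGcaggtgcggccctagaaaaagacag
TGFBR3 (first site), chr4:125126222-125126323, plus strand: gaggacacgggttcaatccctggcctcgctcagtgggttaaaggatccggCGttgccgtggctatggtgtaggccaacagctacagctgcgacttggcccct
TGFBR3 (second site), chr4:125227190-125227291, minus strand: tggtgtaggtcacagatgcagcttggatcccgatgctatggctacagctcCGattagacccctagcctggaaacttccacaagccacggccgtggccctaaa
MMP15, chr6:19887894-19887995, minus strand: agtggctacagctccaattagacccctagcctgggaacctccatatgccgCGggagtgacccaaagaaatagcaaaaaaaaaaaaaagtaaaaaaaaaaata

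The second set holds sites in sequence that was not soft-masked, and is shown for comparison: both BMP7 sites, whose differences had opposite signs, the COL4A1 site, and the SKI site in the untranslated end of the transcript.
BMP7 (gain), chr17:57598183-57598244, plus strand: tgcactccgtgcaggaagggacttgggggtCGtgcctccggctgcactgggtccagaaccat
BMP7 (loss), chr17:57618481-57618542, plus strand: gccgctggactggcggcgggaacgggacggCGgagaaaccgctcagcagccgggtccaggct
COL4A1, chr11:76965202-76965263, plus strand: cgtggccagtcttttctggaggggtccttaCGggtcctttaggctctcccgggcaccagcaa
SKI (3′ end), chr6:64240920-64240949, plus strand: ttacccccaaactaCGtttcccgtagcgat

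Methylation was higher in the increased-dose animals at 9 of the 12 sites and lower at 3, a share of gains of 75%, against 59.3% of all 2349 kept sites. By the mean over the sites of each gene, 6 genes had a gain (COL4A1, COL6A3, COL24A1, BMP7, TGFBR3 and SKI) and COL5A1 and MMP15 had a loss. Because the genes were picked from this table, nothing is read from the distance between these shares. The differences ran from 25.2 to 48.7 points in size with a median of 29.2 points, close to the median of 30.4 points over all kept sites. The table holds differences and not levels, so the methylation level of either group at these sites is not given here. A second site in a gene was not rare in the table: 204 of the 898 symbols (22.7%) had 2 or more kept sites, and among the members COL24A1, BMP7, TGFBR3 and SKI had 2 each.

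**Figure D1:**
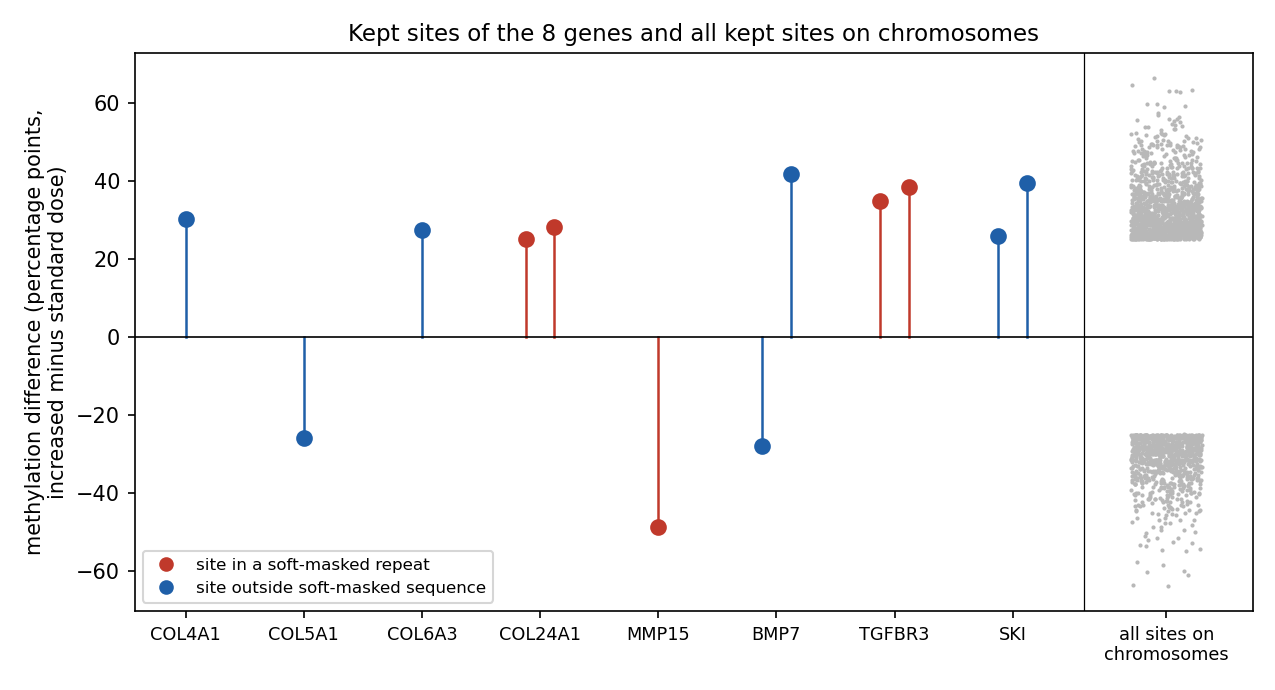
Difference of methylation (increased minus standard dose, percentage points) at each of the 12 kept sites of the 8 genes, as given in the authors' deposited table, with 1 bar per site. The sites of COL4A1, COL6A3, COL24A1, TGFBR3 and SKI all lie above 0, those of COL5A1 and MMP15 lie below it, and BMP7 has a site on each side.

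The collagen chains held 5 sites, 4 with a gain and 1 with a loss, and their sizes stayed within 25.2 to 30.3 points. COL4A1, which encodes a chain of the type IV collagen network of basement membranes, had a gain of 30.3 points at chr11:76965232 (q = 8.67e-07 in the deposited table). The site lay in intron 1 of 53 of the minus-strand gene, 32.2 kb from the gene start, 23.1% of the way along its 139 kb, and 23601 bp from the nearest exon. Of the 12 sites it had the largest q-value, and 91.6% of all kept sites had a smaller one.

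COL5A1 encodes a chain of type V collagen, which is built into type I fibrils and limits their width. Its single kept site, chr1:274074580, had a loss of 25.8 points, written as -25.8 (q = 4.74e-11). It was the only loss among the collagen sites. The site lay near the far end of the gene, in intron 67 of 68, 140 kb from the start and 94.2% of the way along. The 100 bases to each side were 65.2% G and C, second among the members to the BMP7 loss.

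COL6A3 encodes the largest chain of type VI collagen, the beaded microfibril that links cells to the matrix around them. At chr15:137024445 the difference was a gain of 27.4 points (q = 5.24e-08). This site was also far from the gene start, in intron 40 of 43, 86.0% of the way along the 92.1 kb gene, and lay 73 bp from an exon. Among the intronic members it was the site closest to an exon.

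COL24A1 encodes a fibrillar collagen chain best known from developing bone, and its sites were a pair 25 bp apart. The gains were 28.1 points at chr4:130131644 (q = 2.17e-81) and 25.2 points at chr4:130131669 (q = 4.55e-73). Both lay in intron 34 of 61 of the 331 kb gene, about 66.3% of the way along, in the same MspI fragment of 174 bp. They stood in consecutive rows of the table of tested sites, with 0 tested rows between them, so the pair is one place measured at neighbouring CpGs and not 2 separate places. The next kept site on the chromosome with another symbol was at LRRC8D, 3336 kb away, and had a difference of -40.5 points. In size the pair ranked 1578 and 2266 of 2349, yet in q-value 77 and 94.

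MMP15 encodes a metalloproteinase anchored in the cell membrane, which cuts matrix proteins at the cell surface and can activate other proteases. It had the largest difference of the 8 genes, a loss of 48.7 points (-48.7) at chr6:19887944, with the smallest q-value of the members (3.02e-107). Only 4.0% of all kept sites had a larger difference, and 1.96% had a smaller q-value. It was also the only member site outside its gene, at base -2923 relative to the start of the 22.1 kb plus-strand gene and so upstream of it, and no RefSeq gene covered it. The nearest other kept site, 327 kb away and without a symbol, had a gain of 25.1 points.

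BMP7 encodes a bone morphogenetic protein, a secreted ligand that signals through SMAD1, SMAD5 and SMAD8 and opposes TGF-beta in several settings. Its 2 sites had opposite signs. In intron 4 of 6, at chr17:57598213 and 113 bp from an exon, the difference was a gain of 41.9 points (q = 3.93e-21), the second largest size among the members. In intron 2 of 6, at chr17:57618511, it was a loss of 27.98 points (-27.98, q = 5.22e-07). The sites were 20298 bp apart with 25 tested rows between them, none of which was kept. Their mean, 6.95 points, therefore describes neither site. All 5 RefSeq transcripts of the gene placed both sites in an intron. The CpG density around them was high, with 14 CpGs at the gain and 17 at the loss in the 100 bases to each side, against a median of 9 over the kept sites on chromosomes.

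TGFBR3 encodes betaglycan, a coreceptor that binds TGF-beta ligands, TGF-beta 2 in particular, and hands them to the signalling receptors. Both of its sites had gains. The first, chr4:125126272, gained 34.96 points (q = 1.22e-16) and lay 16.3 kb from the gene start, in intron 1 of 16 of the transcript with the longest exons. Of the 4 RefSeq transcripts, 2 began further along the gene, and for these the site was upstream of the start. The second, chr4:125227240, gained 38.6 points (q = 3.16e-61) in intron 3 of 16, within all 4 transcripts. It was 100968 bp from the first site, with 55 tested rows between them and no kept row, and they lay 11180 and 13242 bp from the nearest exon.

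SKI encodes a nuclear corepressor that binds SMADs and holds down the transcription of TGF-beta target genes. Both SKI sites had gains, 25.8 points at chr6:64214600 (q = 1.89e-14) and 39.6 points at chr6:64240934 (q = 3.82e-19). The smaller gain lay in intron 1 of 6, 26.3 kb from the start, and the larger in exon 7 of 7, in its 3′ untranslated stretch, 96.9% of the way along the 54.3 kb gene. It was the only site of the 12 in an exon. Between the sites were 26334 bp and 55 tested rows, of which none was kept. The nearest kept site of another symbol was at PRKCZ, 92.2 kb from the first SKI site, with a gain of 44.4 points. Per kilobase, SKI was the member richest in CpGs (55.3 per kb), and COL24A1 the poorest (21.9 per kb).

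BMP7, TGFBR3 and SKI together held 6 sites, 5 with a gain, and their median size was 36.8 points (25.8 to 41.9 points), against a median of 27.4 points over the 5 collagen sites. These ranges overlapped, and the difference between the roles was not tested.

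**Figure D2:**
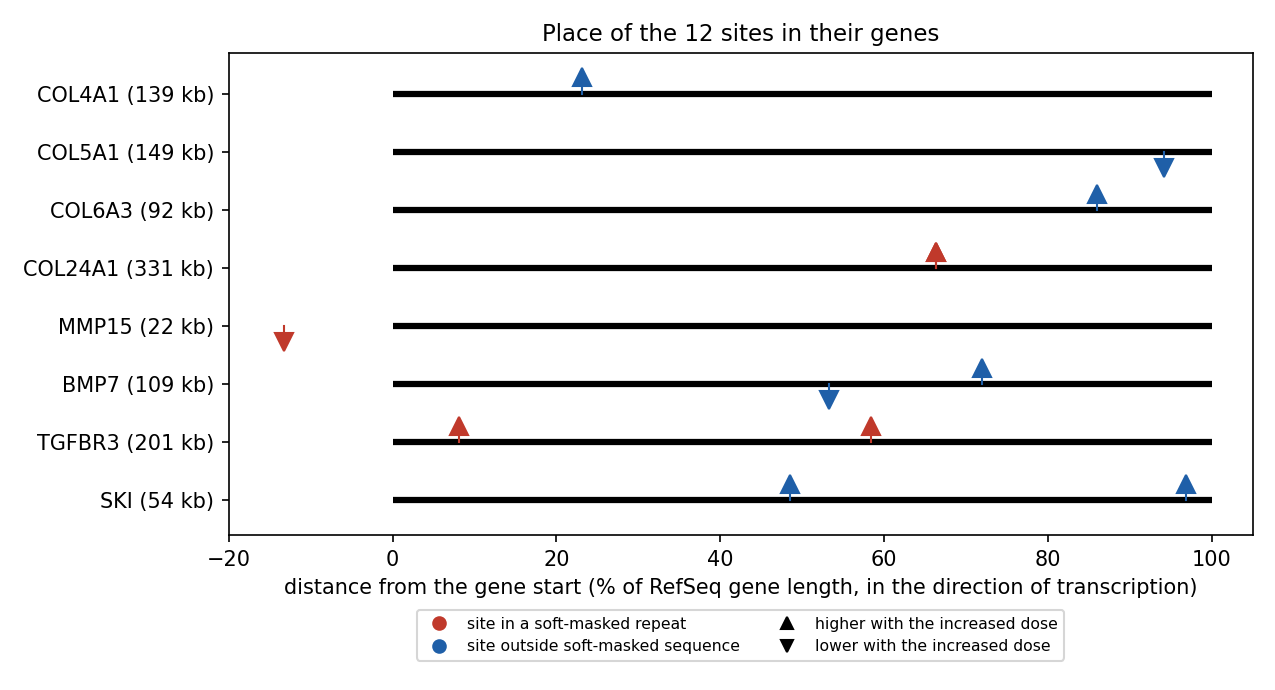
Place of the 12 kept sites along their genes, in percent of the gene's length from its RefSeq start (0) to its end (100), with each gene turned to read left to right. The MMP15 site lies before its gene, and the other 11 lie inside theirs, from 8.13% of the length (TGFBR3) to 96.9% (SKI).

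Apart from the MMP15 site, no site lay before the RefSeq start of its gene, and none of the 12 lay in a coding exon. The sites inside their gene were 11 of 12 (91.7%), against 1395 of 2252 kept sites on chromosomes (61.9%) that lay in any RefSeq gene. The members were taken by gene symbol, which favours sites in genes. Of these 11 sites, 10 were intronic. In 7 of 12 cases the nearest kept site of another gene or of no gene had the same sign as the member site, and in 5 the opposite sign. Both COL24A1 sites had the same LRRC8D neighbour and both SKI sites the same PRKCZ neighbour, so the 12 cases are not separate places. These neighbours were 68.8 to 3336 kb away, with a median of 158 kb.

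How many sites were tested in each gene can only be bounded from above, by the rows between the kept sites that flank the gene and its own sites. This bound was 162 rows at TGFBR3, 163 at BMP7, 343 at MMP15, 577 at COL6A3, 653 at COL4A1 and 931 at SKI, of which 1 or 2 were kept in each gene. For COL5A1 and COL24A1 no later kept site on the chromosome gave such a bound.

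In sequence context, the sites were spread over the range that RRBS covers. The choice of members did not use this context directly, but it was made by gene symbol, which favours sites in genes. Only 1261 of the 2349 kept sites had a symbol, and the shares over kept sites on chromosomes include those without one. All 12 lay within 150 bp of a CCGG, as did all 2252 kept sites on chromosomes, and the median distance was 37 bp against 41 bp. The MspI fragment around the site was 147 bp at COL5A1 and 540 bp at the 3′ SKI site, the shortest and the longest, with a median of 264 bp against 280 bp. Fragments of 40 to 220 bp held 4 of the 12 sites (33.3%), against 33.3% of all kept sites on chromosomes. By a lenient definition of a CpG island (200 bp or longer, GC above 0.5 and a CpG observed-to-expected ratio above 0.6), 10 of 12 sites (83.3%) lay in one, against 70.6%, and by a stricter one (500 bp, 0.55 and 0.65) 5 of 12 (41.7%), against 17.3%. The 5 were those of COL5A1, COL6A3 and BMP7 and the intronic one of SKI. GC content was 54.0% in median against 53.7%, from 44.8% at the 3′ SKI site to 66.2% at the BMP7 loss.

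The members were split by repeats. The sites of COL24A1, TGFBR3 and MMP15, 5 in all, lay in soft-masked sequence, and the 7 sites of COL4A1, COL5A1, COL6A3, BMP7 and SKI did not. That is 41.7% of the members, against 1429 of 2252 kept sites on chromosomes (63.5%), with or without a gene symbol. Among all CpGs in MspI fragments of 40 to 400 bp of the reference, 24.7% were soft-masked. These CpGs are not the tested sites, whose soft-masked share is unknown, and 72.2% of kept sites on chromosomes lay in such fragments. All 5 repeat sites matched the element around the COL24A1 pair, a soft-masked run of 283 bp at chr4:130131452-130131734. The MMP15 site matched it on the minus strand with 82.7% identity over 197 bp. The first TGFBR3 site matched on the plus strand with 77.6% identity over 134 bp, and the second on the minus strand with 73.2% over 261 bp. The reference gives this element no family name, and short interspersed elements derived from transfer RNA are known to be abundant in pig DNA.

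Within the element, the second TGFBR3, the second COL24A1 and the MMP15 site fell at bases among those with the most kept sites of the whole table. Tested or reference CpGs were not counted per base, so how often a base could have been kept is unknown. Of 1300 kept sites placed on it, 103 fell at base 226, the most common one. Next came base 184 with 91 sites, among them the second TGFBR3 site, base 218 with 80, among them the second COL24A1 site, and base 220 with 68, among them the MMP15 site. The first TGFBR3 site fell at base 145, shared by 55 kept sites. By contrast, the first COL24A1 site stood at base 193, where only 3 kept sites fell. These bases are counted from the first base of the run on the plus strand. The signs differed between genes at close bases, with a gain in COL24A1 at base 218 and a loss at MMP15 at base 220.

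**Figure D3:**
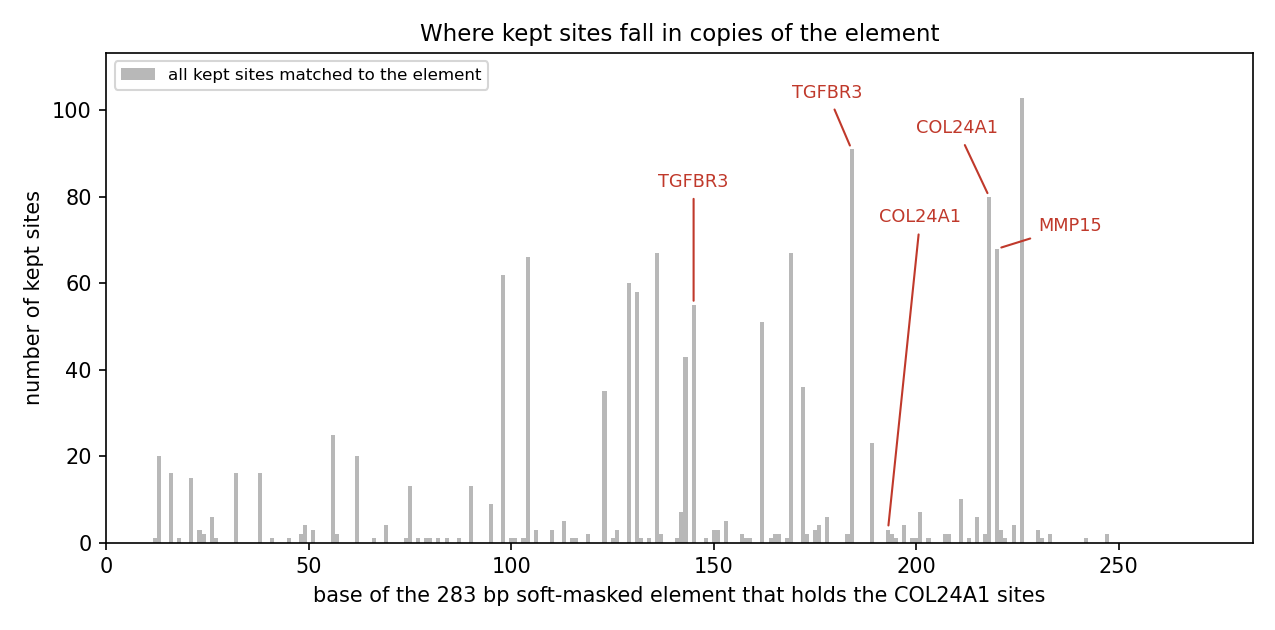
Number of kept sites of the whole table (bars) at each base of the 283 bp soft-masked element that holds the COL24A1 sites, with the 5 member sites in copies of it marked. The second TGFBR3 site, the second COL24A1 site and the MMP15 site stand at 3 of the 4 most common bases, with 91, 80 and 68 kept sites, and the first COL24A1 site at a base with 3.

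Copies of the repeat sites were many but not close. With the 75 bases to each side of a site taken as a window, and 90% or more of it aligned, the window of the first COL24A1 site had 204458 other places in the genome at 80% identity or more, the first TGFBR3 site 23295, the MMP15 site 2081, the second COL24A1 site 1961 and the second TGFBR3 site 624. At 90% identity or more the MMP15 site had 9 such places, the first TGFBR3 site 2 and the others 0, and at 95% all had 0. The best match elsewhere was 87.7% to 90.8% identical. The 7 sites outside repeats had 0 such places even at 80%. The window of the second COL24A1 site ran past the end of the element, and that of the first did not. These counts depend on where a window lies and are not copy numbers of the element.

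The q-values followed the same split. On the scale of -log10 q, where a larger value is a smaller q, the repeat members ran from 15.9 to 106.5 with a median of 72.3, and the other members from 6.06 to 20.4 with a median of 10.3. These ranges overlapped only through the first TGFBR3 site, which lay at 15.9. The COL24A1 pair, a single place, counts as 2 of the repeat members, and the median of 72.3 is the value of its second site. Over all kept sites on chromosomes the medians were 16.5 in soft-masked sequence and 11.4 outside it. Sizes were less apart: the repeat members had a median of 34.96 points and the others 27.98 points, against 30.6 and 30.1 points over all kept sites on chromosomes. Of the repeat members 4 had a gain and 1 a loss, and of the others 5 had a gain and 2 a loss. The part of repeat copies or of read depth in the small q-values of COL24A1, TGFBR3 and MMP15 was not tested. Whether any of these q-values covers the spread between animals is unknown, because the unit of the authors' comparison is not given.

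**Figure D4:**
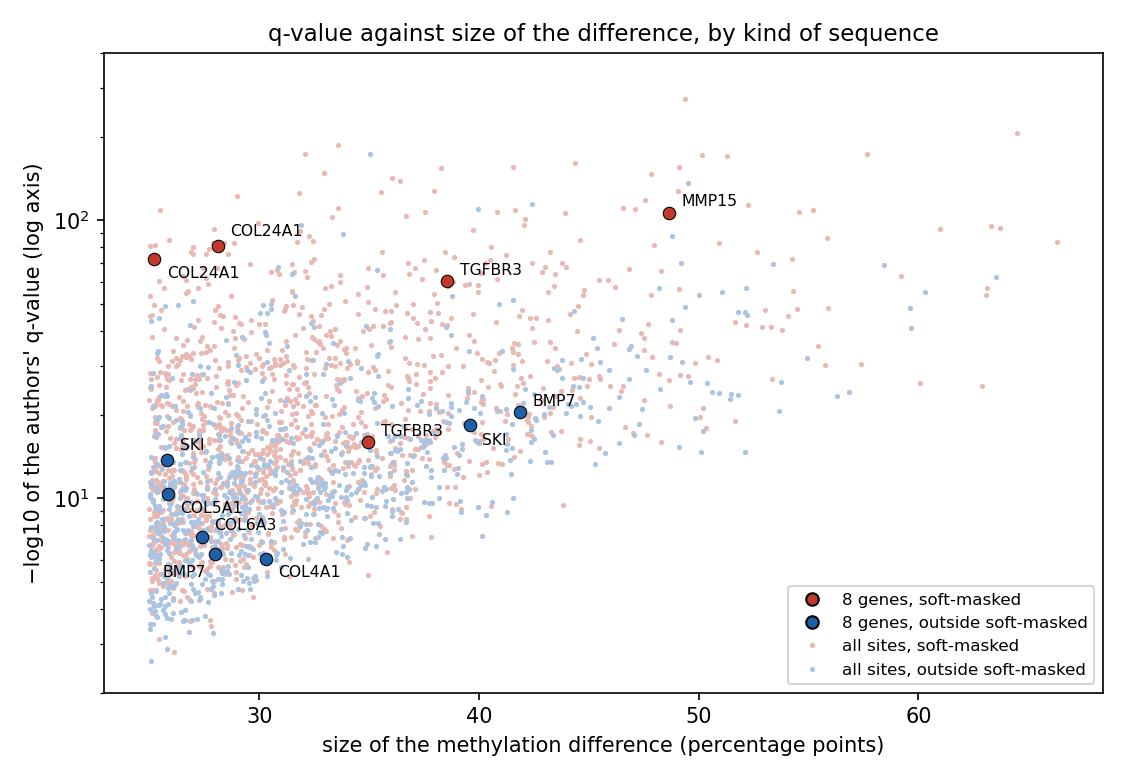
-log10 of the authors' q-value (log axis) against the size of the difference in percentage points, for the kept sites on chromosomes, with the 12 member sites labelled. Members in soft-masked sequence run from 15.9 to 106.5 on the vertical axis and members outside it from 6.06 to 20.4, and 1 site with a q-value of 0 is not drawn.

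Beyond the members, a list of 246 genes of collagens, their maturation, matrix proteases, other matrix proteins and TGF-beta signalling was searched in the table, and 16 of its genes had a site, 10 with a mean gain and 6 with a mean loss. Of these 16 genes 8 were the members, chosen because they had a site. Without the members 8 of 231 list genes had one (3.46%), against 839 of 19535 protein-coding genes of RefSeq (4.29%). Leaving out genes chosen for having a site lowers the share of the lists by construction, and keeping them raises it. The lists can therefore not be placed above or below that background. The counts per list below include the members and are given beside the 4.29%. Among the 44 collagen chains the members were the only 4 with a symbol in the table. Of 27 genes of collagen maturation 3 had sites. The protease TLL2 had gains of 27.2 and 27.5 points. LOXL4, a lysyl oxidase that cross-links fibrils, had a gain of 25.7 points, and PLOD1, a lysyl hydroxylase, a difference of -25.2 points. Matrix proteases and their inhibitors had 2 of 44 genes, MMP15 and ADAMTS16, and the ADAMTS16 site had a gain of 26.5 points. Other matrix proteins had 2 of 42 genes, the laminin chain LAMA1 with a gain of 25.2 points and the proteoglycan VCAN with a difference of -26.4 points, at a site that RefSeq places in XRCC4.

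In the signalling lists, ligands had 2 of 33 genes, receptors 1 of 19 (TGFBR3), SMADs and nuclear regulators 2 of 16, and extracellular regulators such as the latent TGF-beta binding proteins and BMP antagonists 0 of 21, against the same 4.29% of all protein-coding genes. The other ligand was TGFB2, the isoform for which TGFBR3 is best known as a coreceptor. All 3 TGFB2 sites had losses (-35.1, -29.8 and -29.9 points), while both TGFBR3 sites had gains. The other nuclear regulator was TGIF2, a repressor that binds SMADs, with a difference of -29.3 points at a site that RefSeq places in LOC110257438. Over the 8 list genes that are not members, 5 of 11 sites had gains and 6 had losses, and 3 of the 11 were soft-masked. By RefSeq gene bodies with 5000 bp to each side in place of the table's symbols, 17 list genes had a site. COL7A1 (a gain of 26.5 points), BMPR1B (-34.8 points) and ADAMTS13 (a gain of 26.2 points) were those that the symbols had not given. By the same count VCAN and TGIF2 no longer had a site.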

How the data were processed

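Lung DNA of 16 pigs was examined by RRBS, and groups were taken from the sample labels. The study's methods name FastQC, FlexBar, BSMAP in its MspI mode, the build Sscrofa11.1 and methylKit, and the submitters' processing notes give methylKit 1.26.0. Each kept site has a p-value and a q-value in the deposited table, both from the authors' comparison. Its methylation difference, computed by the authors, was treated as a signed score in percentage points and read as increased minus standard dose. The unit of that comparison (animals or pooled reads) is not given in the sources used, and with pooled reads the q-values would not cover the spread between animals.

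The members, gene lists and alternatives were chosen with earlier results of these data known. No test was run. All 8 members are named with every site; the lists are given by counts, with up to 4 genes named per list. Gene models, sequences and soft-masked repeats came from the RefSeq copy of Sscrofa11.1, and MspI fragments were cut in silico at CCGG. Intron and exon numbers follow the transcript with the longest exons. Windows around sites were searched in the genome with blastn 2.17.0, and sites were placed on the COL24A1 element where 150 bp to each side matched it with an E-value of at most 1e-05. Tables were handled with pandas 2.3.3, numpy 2.4.6 and pysam 0.24.0. The steps that derive sequence context were tested on simulated data. Alternatives were size limits of 30 and 35 points, a q-value under 1e-10, merging of sites up to 100 or 1000 bp apart, RefSeq gene bodies, a stricter island, longer fragments, and, chosen after seeing the data, sites outside soft-masked sequence.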

Additional observations from a re-analysis of the deposited data

How the results depend on the processing

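Of 37 recomputed values 23 kept within the limits set and 14 moved. A count could differ by up to 1.5 times, and the share of gains had to stay in its 95% Clopper-Pearson interval (42.8% to 94.5%, which treats sites as independent). Any change of a median counted as moved, since no spread between animals is known. The interval is wide, counts both sites of the COL24A1 pair, and was set against alternatives drawn from the same 12 sites. That the share stayed within it therefore says little. The 12 member sites became 6 at a limit of 30 points, 4 at 35 points and 7 outside soft-masked sequence, the alternative chosen after seeing the data. The median size of 29.2 points became 39.1 at 30 points, 40.7 at 35 points, 34.96 at a q-value under 1e-10, 30.3 with sites up to 100 or 1000 bp apart merged (which counts the COL24A1 pair once), 28.1 in RefSeq gene bodies (which drops MMP15) and 27.98 outside soft-masked sequence. At 35 points 3 genes had a mean gain, against 6, and 4 did at 30 points, at a q-value under 1e-10 and outside soft-masked sequence, just at the limit. The q-value limit left 9 sites. Islands of at least 500 bp held 5 member sites, against 10, and fragments of 40 to 400 bp held 10, against 4. At 30 points 6 list genes had a site, against 16. These follow from which sites each limit leaves. The share of gains stayed between 71.4% and 83.3%. No paired analysis was possible because the result comes from no test and the table holds no column for a single animal. The study's methods give a minimum number of reads for a site, but the depth of each site is unknown, so what depth limits here cannot be given.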

Other observations

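The element that holds the COL24A1 pair was common in the table as a whole. Of the 2252 kept sites on chromosomes 1311 (58.2%) matched it, and by a search of the genome for its copies, which found 1032403 matches with a median identity of 78.3%, 57.7% of kept sites lay in one. The same search placed 18.0% of CpGs in MspI fragments of 40 to 400 bp and 22.8% of all chromosomal CpGs in a copy. Neither set is that of the tested sites, whose share in the element is unknown. Kept sites in the element had gains in 60.8% of cases and a median -log10 q of 16.8, and those outside it had gains in 58.0% and a median of 11.7. Why kept sites were common in the element was not tested. Sites at COL24A1, TGFBR3 and MMP15 were in this class and those of the other 5 genes were not.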
